A study of Mus musculus with 13 samples.

Results

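The genes described here encode the proteins of the cytosolic ribosome, and they were followed through β-selection in sorted mouse thymocytes. Members were chosen by name alone: protein-coding genes with an Rpl or Rps symbol of the standard numbered form, their close paralogues, and Rplp0, Rplp1, Rplp2 and Rpsa. The rule took 83 of the 47937 genes of the count table, 52 of the large and 31 of the small subunit. Rps3a1, Fau and Rack1 also encode subunit proteins or parts of them and fell outside the name rule, and their values are given near the end.

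Ribosomal proteins fold onto the ribosomal RNAs to build the small subunit, which decodes the mRNA, and the large subunit, which joins amino acids. Cells usually make them in matched amounts, and most of their mRNAs start with a terminal oligopyrimidine tract, a short run of C and T (U in the RNA) through which mTOR signalling and Larp1 control their translation. Thymocytes that pass β-selection grow and divide quickly, and the ribosomal protein Rpl22 is known to be needed for αβ T cells at that step.

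The RNA came from freshly sorted, untreated DN3 and DN4 thymocytes of C57BL/6 mice aged 6 weeks. DN3 cells are CD4-CD8- cells that rearrange the Tcrβ locus, and DN4 cells are the CD4-CD8- cells that follow β-selection. Wt mice were WT;Lck-Cre+ and knockout mice were Opa1fl/fl;Lck-Cre+, so both genotypes carried Lck-Cre, which acts in developing T cells from the DN stages on. Opa1 encodes the GTPase that fuses the mitochondrial inner membrane and shapes its cristae. There were 3 DN3 Wt, 4 DN4 Wt, 3 DN3 KO and 3 DN4 KO libraries from 7 mice; mice WT05, WT46, WT48, KO45, KO49 and KO51 gave both stages and WT40 gave DN4 only. The 13 libraries held between 5926848 and 14148661 counts, with a median of 10023044. In bulk samples, fewer cells of a type and less RNA per cell cannot be told apart.

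Opa1 mRNA was not reduced beyond the replicate spread in the libraries labelled KO. It stood at 88.6 to 93.8 CPM (counts per 1000000 counts, after scaling of library sizes by TMM) in DN3 KO against 91.1 to 112 in DN3 Wt, and at 77 to 87.9 in DN4 KO against 85.1 to 93.8 in DN4 Wt, so these groups are called KO-labelled below. The log2 fold changes were -0.12 (SE 0.133, edgeR adjusted p = 1) and -0.08 (SE 0.0881, edgeR adjusted p = 0.945). Which exons the floxed allele loses is not given in the sources used here, and a count over the whole gene also takes reads from exons outside the deleted part, so these values do not check the deletion. The 8 DN3 markers summed to 3470 to 4810 CPM in DN3 and to 858 to 2390 CPM in DN4 libraries, and the 8 post-β-selection markers to 148 to 270 and to 702 to 3670 CPM. The sum of the 8 B cell markers was 286 to 428 CPM in DN3 and 887 to 4980 CPM in DN4, and none of the 8 was at 0 throughout. Plasmacytoid dendritic cell markers (4 of 4 in the table) summed to 251 to 452 and 496 to 868 CPM, and the higher DN4 sum came from Ccr9 alone (101.8 to 272 CPM in DN3 and 381.2 to 765.7 in DN4), since the group means of Bst2 and Tcf4 were lower in DN4 and Siglech did not exceed 0.2927 CPM in any library. The sums of the 6 erythroid and 6 myeloid markers did not exceed 6.19 and 13.1 CPM in any library. NK and innate lymphoid markers summed to 126 to 211 CPM, γδ T cell markers (3 of 4 in the table) to 503 to 1400 CPM and stromal markers to 112 to 245 CPM. The library DN3 WT05 stood apart: in it 41.49% of counts fell on 11 ribosomal RNA-like genes, against 0.4422% to 1.751% elsewhere, its TMM factor was 0.578 against 0.995 to 1.1, and its 4 proliferation markers summed to 3510 CPM against 1060 to 2260. Mki67 (2051 CPM) and Top2a (1254 CPM) carried that sum, while Ccnb1 (98.03 CPM) and Cdk1 (106.8 CPM) lay within the range of the other libraries. Fitted changes of members that rest on DN3 WT05 are therefore given with and without it; for the lists of other genes at the end this was not done.

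The start of the transcript is where most of these genes carry their shared control element, so the start windows of the members that the results turn on are shown first. RefSeq start windows on GRCm38.p6 were found for 63 of the 83 members. Each window is written 5′ to 3′ on the transcribed strand, and capitals mark the longest run of at least 8 consecutive C or T that begins within 30 bases of the RefSeq start, or of equal runs the one furthest downstream, so that another such stretch in the Rps27l window is in lower case.
Rpl22 (chr4:152324426-152324455, plus strand): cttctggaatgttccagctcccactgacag
Rpl22l1 (chr3:28805499-28805528, plus strand): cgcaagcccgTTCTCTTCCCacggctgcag
Rps27 (chr3:90213631-90213660, minus strand): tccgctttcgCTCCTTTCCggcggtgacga
Rps27l (chr9:66946064-66946093, plus strand): ctcctctccaCTCCTCCCCgccgcctctat
Rpl36a (chrX:134585671-134585700, plus strand): gcggctctagCCTCTCTCTTTCCgagctgc
Rpl3l (chr17:24727816-24727845, plus strand): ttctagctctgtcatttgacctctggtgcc
The Rpl22l1, Rps27, Rps27l and Rpl36a windows hold runs of 10, 9, 9 and 13 pyrimidines. Counted from the RefSeq start, the first bases of these runs lie at 1, -2, -12 and 27. The Rps27l run thus ends upstream of that start and the Rpl36a run begins inside the transcript, so neither is terminal by that start. The longest run near the Rpl22 and Rpl3l starts was 5 bases. For Rpl22 the RefSeq start lies upstream of the gene model used for counting. Among members with an entry, 43 of 63 (68.3%) had such a run, against 7292 of 27025 genes with an entry (27%). The median longest run was 10 against 6 bases. Runs on either side of the start were counted, so these shares do not show how many mRNAs begin with such a tract. The letters CCGGAAG, the core of an ETS family motif, stood on either strand of the window from 250 bases before to 50 bases after the start in 25 of the 63 members (39.7%) and in 9.93% of all genes. These matches describe the sequence and are not evidence of a factor bound there.

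The ribosomal protein mRNAs were abundant and evenly expressed. Rpl10l and Rpl39l were not past the filter on low counts over all 13 libraries: Rpl10l, a testis paralogue of Rpl10, had 0 counts in every library, where 3 counts correspond to 0.207 to 0.878 CPM, and Rpl39l, a paralogue of Rpl39, had 0 to 12 counts per library. The other 81 had a median level of 819.6 CPM, 78 of them lay over 100 CPM and 24 over 1000 CPM. The highest library was at most 2 times the lowest for 73 of the 81, with a median ratio of 1.558, and without DN3 WT05 this held for 76 with a median ratio of 1.34. On the level per kilobase of mRNA, the median was 1011 CPM per kb. The 3 highest were Rplp1 (2633 CPM per kb), which encodes an acidic protein of the ribosomal stalk, Rps29 (2192) and Rps27 (2137), both small subunit proteins with a zinc finger. The 3 lowest past the filter were Rpl3l (0.7826), the striated muscle paralogue of Rpl3, Rpl24 (8.845) and Rpl7l1 (59.65).

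Many members share sequence with other genes. Rpl24, a large subunit protein, stood at 4.362 to 9.315 CPM, and 81.69% of its 50-base stretches occur in other genes; the overlapping Gm28037 alone shares 436 of 628 and had 0 counts throughout. Other members shared more at ordinary levels, such as Rpl35 with 95.09% and Rpl5 with 85.41%. Over the 83 members the median share of such stretches was 35.78%, and 27 members shared at least 50%. Levels of those members, Rpl36a (85.48%) and Rpl22l1 (58.93%) among them, are uncertain, since reads may be split among genes or not counted. Whether the counting used strand is not given in the sources used here, which bears on 23 members with a gene on the opposite strand.

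The 83 members together took 3.016% to 8.135% of all counts in a library. In DN3 Wt the share was 3.016%, 7.943% and 7.809% in WT05, WT46 and WT48, and in DN4 Wt it was 7.034%, 6.753%, 7.244% and 6.659% in WT05, WT40, WT46 and WT48. KO-labelled libraries had shares of 7.695%, 8.135% and 7.774% in DN3 (KO45, KO49, KO51) and of 6.532%, 7.707% and 7.689% in DN4. DN3 WT05 was the lowest library of all, whereas the other DN3 Wt libraries lay above every DN4 Wt library; in KO-labelled mice the stages overlapped. When the ribosomal RNA-like and mtDNA-encoded genes were left out of the total, a choice made after seeing the data, the shares averaged 7.13% ± 1.55 (SD, n = 3) in DN3 Wt, 7.1% ± 0.282 (n = 4) in DN4 Wt, 8% ± 0.237 (n = 3) in DN3 KO-labelled and 7.41% ± 0.681 (n = 3) in DN4 KO-labelled libraries. DN3 WT05 still had the lowest share, 5.333%.

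**Figure D1:**
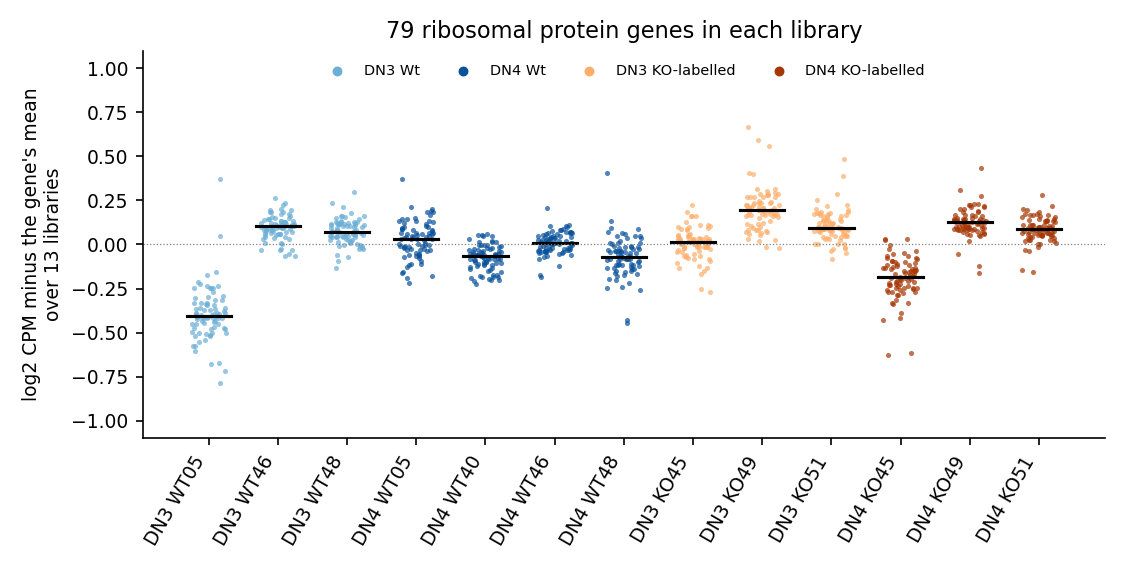
Each point is 1 of 79 ribosomal protein genes (those past the filter other than Rpl29 and Rpl3l) in 1 library; the vertical axis is log2 CPM minus the gene's mean over the 13 libraries, bars are medians and colours are the 4 groups. The members of DN3 WT05 lie below those of the other libraries, and DN4 KO45 is the next lowest.

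The members moved together from library to library. Their median level was 602.8, 889 and 868.5 CPM in DN3 Wt (WT05, WT46, WT48) and 804.1, 755.6, 811.9 and 764.1 CPM in DN4 Wt (WT05, WT40, WT46, WT48). KO-labelled libraries had medians of 811.6, 951.6 and 871 CPM in DN3 (KO45, KO49, KO51) and of 698.2, 894.6 and 856.9 CPM in DN4. The lowest library of a member was DN3 WT05 for 67 of 81 and DN4 KO45 for 12, so 2 libraries held the lowest values of nearly all members.

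The first question was how ribosomal protein mRNAs differed between DN3 and DN4 cells of Wt mice. No member passed the test: 0 of 80 tested were called by edgeR at an adjusted p under 0.05, against 22.9% of all genes tested (2903 of 12691), and DESeq2 and limma-voom also called 0. At an unadjusted p under 0.05, edgeR had 1 member, and the smallest adjusted p was 0.1206. Fitted log2 changes split evenly, 40 up and 40 down, with a median of 0.00 against -0.03 over all genes tested. The 95% interval of the change lay within 0.5 log2 units of 0 for 62 of the 80 members and within 1 unit for 79. Among the 80 tested members the Wt groups did not overlap for 1, Rps29, which was higher in DN4, against 20% of all genes higher without overlap and 15% lower.

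Rps29 stood at 512.1, 808 and 827.9 CPM in DN3 Wt (WT05, WT46, WT48) and at 884.1, 852, 875.8 and 873.6 CPM in DN4 Wt (WT05, WT40, WT46, WT48). Every DN4 library lay above every DN3 library, and without WT05 the gap between the nearest libraries was small beside the level itself. The log2 fold change was 0.26 (SE 0.179, edgeR adjusted p = 0.3443), and 0.06 (SE 0.0823, edgeR adjusted p = 0.6515) without DN3 WT05. In KO-labelled mice it was 0.09 (SE 0.145, edgeR adjusted p = 0.6912), with overlapping groups.

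**Figure D2:**
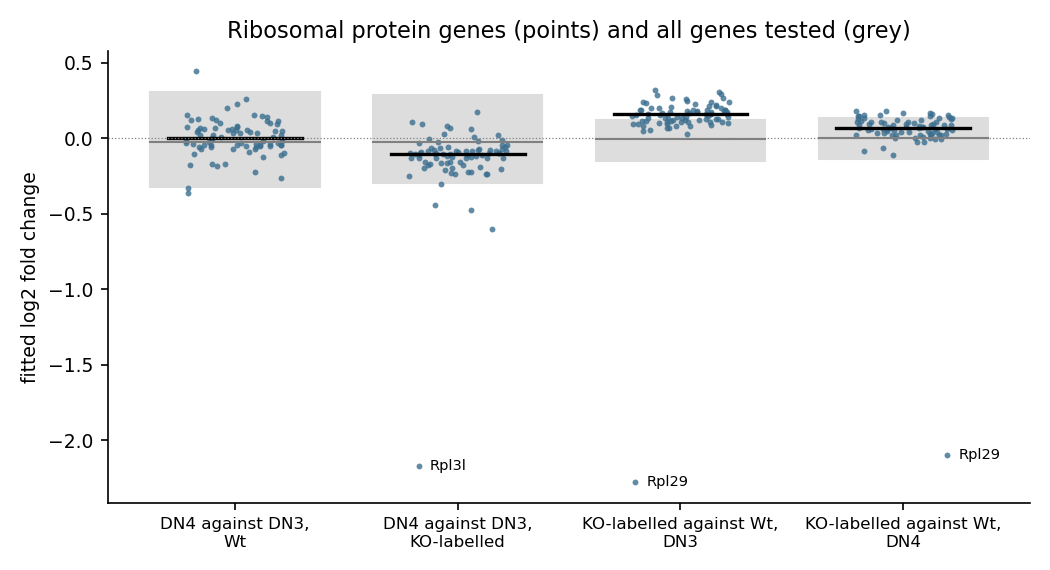
Points are the fitted log2 fold changes of the ribosomal protein genes tested in 4 comparisons, black bars their medians, grey boxes the interquartile range of all genes tested and grey lines the all-gene medians. The medians of the members are 0.00, -0.10, 0.16 and 0.07, and Rpl3l and Rpl29 lie apart.

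In KO-labelled mice the members leaned lower in DN4, without a call in the same test, and that lean rested largely on DN4 KO45. Of 81 members tested, 72 had a lower and 9 a higher fitted level in DN4, with a median log2 change of -0.10 against -0.02 over all genes. Without DN4 KO45 the median was -0.047 against -0.045 over all genes, with 64 members lower and 17 higher; without DN4 KO49 it was -0.18 and without DN4 KO51 -0.16. Of the 7 DN4 libraries, KO45 also had the highest sums of DN3 markers (2390 CPM against 858 to 1590) and of post-β-selection markers (3670 CPM against 702 to 2500). Rag1 carried that DN3 marker sum, at 1590 CPM in KO45 against 251 to 875.4 CPM in the other DN4 libraries. Rag2, Notch3 and Il2ra were also highest in KO45. Ptcra, Notch1 and Dtx1 lay within the range of the other DN4 libraries, and Hes1 was lowest in KO45. The part of these markers in the result was not tested. With all libraries, edgeR called 0 members against 18.6% of all genes tested (2338 of 12580); 2 members had an unadjusted p under 0.05, limma-voom called 0 and DESeq2 called 1, Rpl22l1. Among the 81 tested, the groups did not overlap for 6 members lower in DN4 (Rpl3, Rpl3l, Rpl10a, Rpl24, Rplp0 and Rps14, named after their values were seen), against 16.7% of all genes lower and 22% higher without overlap.

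With the mouse as a block, 4 members fell from DN3 to DN4 in KO-labelled mice: Rpl22l1, Rps27l, Rpl36a and Rpl3l. This compares with 35.8% of all genes called in that fit (4499 of 12580) and 16.9% called lower. With each mouse left out in turn, chosen after seeing the data, 3 members were called each time; Rpl22l1 and Rps27l were called in all 3 fits, Rpl3l without KO45 and without KO49, and Rpl36a without KO51. In Wt mice the blocked fit called 0 of 80 members by edgeR, against 18.7% of all genes (2340 of 12531), with a smallest adjusted p of 0.1722 and 1 called member, Rpl3l, once WT05 was left out.

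DN3 WT05 set the balance of the Wt comparison. The median was 0.087 without DN3 WT46 and 0.075 without DN3 WT48. Without DN3 WT05, a median log2 change of -0.15 replaced 0.00, 75 of 81 members had a lower fitted level in DN4 and 6 a higher one, and edgeR called 5 members, all lower, against 11.4% of all genes called lower. These were Rps14 (log2 fold change -0.38, edgeR adjusted p = 0.02272), Rps2 (-0.37, adjusted p = 0.03013), Rps19 (-0.32, adjusted p = 0.04026), Rpl18 (-0.27, adjusted p = 0.04884) and Rpl3l (-3.76, adjusted p = 0.01035), named after their values were seen. Rps14, whose loss in people causes the anaemia of a myelodysplastic syndrome, stood at 977, 1663 and 1552 CPM in DN3 Wt (WT05, WT46, WT48) and at 1285, 1206, 1330 and 1243 in DN4 Wt (WT05, WT40, WT46, WT48). Only the WT05 value of DN3 lay below the DN4 range. Rps19, the gene most often affected in Diamond-Blackfan anaemia, stood at 658.7, 920.2 and 884 CPM in DN3 Wt and at 792.4, 691.6, 711.6 and 763.6 CPM in DN4 Wt, with the same arrangement.

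**Figure D3:**
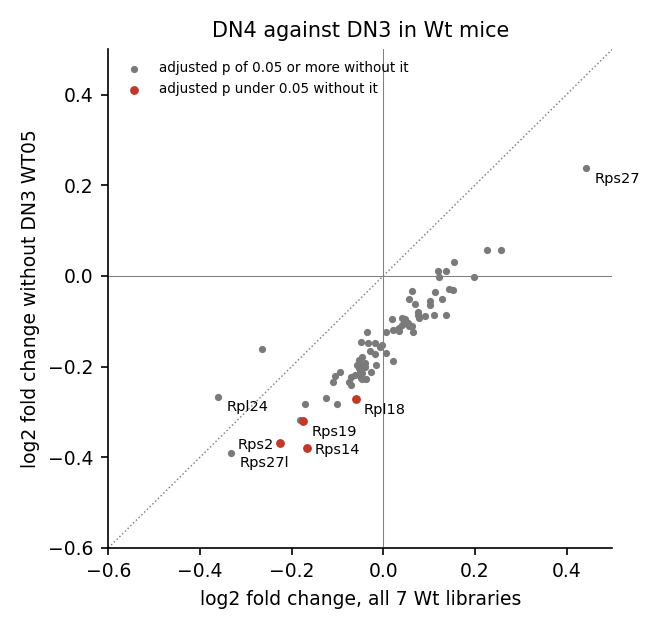
Each point is a ribosomal protein gene; the horizontal axis is the log2 fold change of DN4 against DN3 with all 7 Wt libraries and the vertical axis the same without DN3 WT05. Nearly all points lie below the dotted line of equality, and red points are members with an adjusted p under 0.05 without that library; Rpl3l was not tested with all 7 libraries and is not drawn.

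The within-mouse differences showed the same 2 libraries. The median member changed from DN3 to DN4 by a log2 value of 0.42 in WT05, -0.09 in WT46 and -0.13 in WT48, and by -0.20 in KO45, -0.07 in KO49 and -0.02 in KO51. WT05 was thus the 1 mouse of 6 whose members were mostly higher in DN4. Only 5 members had the same sign in all 6 mice: Rps27 and Rps29 were higher in DN4 (2.47% of members, against 21.9% of all genes), and Rpl24, Rpl3l and Rps27l were lower (3.7%, against 17.6%).

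Paralogue pairs were examined next, because members of a pair can replace each other in the ribosome. Rpl22 binds RNA outside the ribosome too, and its paralogue Rpl22l1 is known to rise when Rpl22 is lost. Rpl22 stood at 305.2, 376.4 and 395 CPM in DN3 Wt (WT05, WT46, WT48) and at 382.1, 373.5, 375 and 349.3 CPM in DN4 Wt (WT05, WT40, WT46, WT48). In DN3 KO-labelled libraries it was 353.4, 451.4 and 422.3 CPM (KO45, KO49, KO51) and in DN4 315.6, 395.3 and 392.2 CPM. Within mice it was lower in DN4 in 5 of 6, by log2 values of -0.16 in KO45, -0.19 in KO49, -0.11 in KO51, -0.0054 in WT46 and -0.18 in WT48, and higher in WT05 by 0.32. Both stages and both genotypes overlapped, and the log2 change from DN3 to DN4 was 0.02 in Wt (SE 0.120, edgeR adjusted p = 0.9368) and -0.17 in KO-labelled mice (SE 0.137, edgeR adjusted p = 0.4182); without DN3 WT05 the Wt value was -0.09.

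Rpl22l1 was lower in DN4 than in DN3 in the same 5 of 6 mice. Its levels in DN3 Wt were 139.6, 195 and 180.7 CPM (WT05, WT46, WT48) and in DN4 Wt 174.6, 143.8, 160.5 and 138.6 CPM (WT05, WT40, WT46, WT48). In KO45, KO49 and KO51 it went from 166.1, 244.6 and 232.3 CPM in DN3 to 108.1, 152.4 and 168 CPM in DN4. The KO-labelled groups overlapped between mice, since DN4 KO51 lay just above DN3 KO45, but each mouse was lower in DN4. The log2 change in KO-labelled mice was -0.60 (SE 0.199, edgeR adjusted p = 0.07239), and with the mouse as a block it was -0.61 (SE 0.083, edgeR adjusted p = 0.0005141), a fall in 3 of 3 mice. In Wt mice it was -0.18 (SE 0.142, edgeR adjusted p = 0.4029), and -0.32 (SE 0.114, edgeR adjusted p = 0.08138) without DN3 WT05. The difference between the genotypes' changes was -0.43 (SE 0.262, edgeR adjusted p = 1), and -0.28 (SE 0.253, edgeR adjusted p = 1) without that library. Rpl22l1 shares 58.93% and Rpl22 5.159% of its 50-base stretches with other genes. Counted reads of Rpl22l1 relative to Rpl22 were 47.8% ± 3.5 (SD, n = 3) in DN3 Wt, 41.7% ± 3.24 (n = 4) in DN4 Wt, 52.1% ± 4.41 (n = 3) in DN3 KO-labelled and 38.5% ± 4.29 (n = 3) in DN4 KO-labelled libraries. In this ratio every KO-labelled DN3 library, from 47.0% to 55.0%, lay above every KO-labelled DN4 library, from 34.3% to 42.8%.

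**Figure D4:**
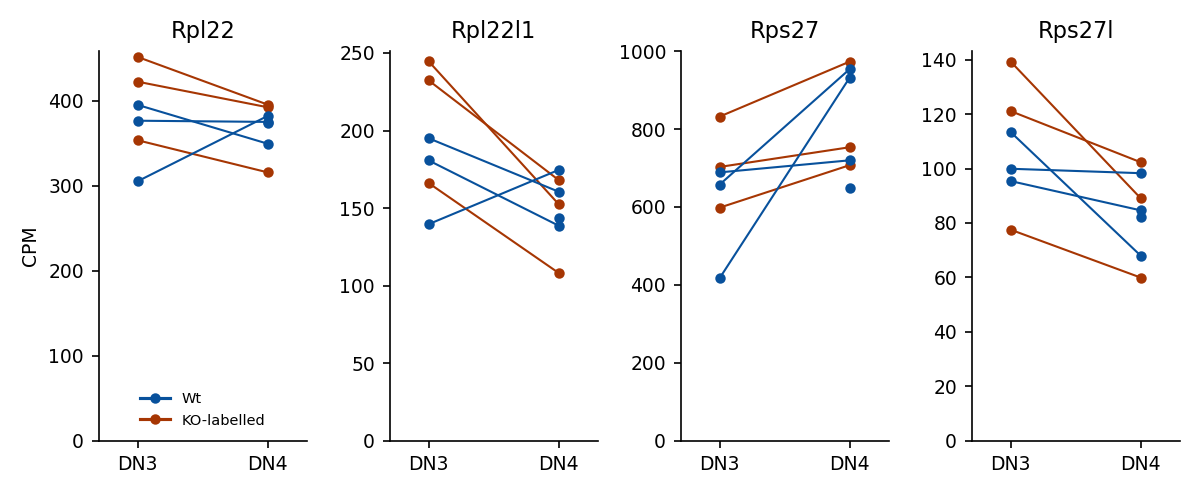
CPM of Rpl22, Rpl22l1, Rps27 and Rps27l in DN3 and DN4; each point is 1 library, lines join the libraries of 1 mouse and the point without a line is DN4 WT40. Rpl22l1 is lower in DN4 in all mice except WT05, Rps27 is higher in DN4 and Rps27l is lower in DN4 in all 6 mice with both stages.

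Rps27 was higher and Rps27l lower in DN4 than in DN3 of all 6 mice with both stages. Rps27 is a small subunit protein of which Rps27l, a target of Trp53, is a near copy. Rps27 stood at 417.3, 688.8 and 657.5 CPM in DN3 Wt (WT05, WT46, WT48), at 932.4, 647.6, 719.8 and 954.1 CPM in DN4 Wt (WT05, WT40, WT46, WT48), at 598.3, 832.1 and 702.8 CPM in DN3 KO-labelled (KO45, KO49, KO51) and at 707.4, 973.3 and 753.4 CPM in DN4 KO-labelled libraries. The groups overlapped in both genotypes although each mouse was higher in DN4. The log2 change was 0.44 in Wt (SE 0.220, edgeR adjusted p = 0.1903), the highest of any member tested there, and 0.17 in KO-labelled mice (SE 0.167, edgeR adjusted p = 0.5157); without DN3 WT05 the Wt value was 0.24. The 3 DN4 libraries with the highest Rps27, KO49, WT48 and WT05, were also the 3 with the highest sum of B cell markers, 3180, 4980 and 2810 CPM against 887 to 2090 CPM in the other 4, and the part of those markers in the result was not tested.

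Rps27l stood at 95.39, 99.91 and 113.4 CPM in DN3 Wt and at 84.62, 82.05, 98.28 and 67.96 CPM in DN4 Wt, in the same order of mice. KO-labelled mice had 77.52, 139.3 and 121.1 CPM in DN3 (KO45, KO49, KO51) and 59.92, 89.05 and 102.3 CPM in DN4. The groups overlapped, narrowly in Wt mice. The log2 change was -0.33 in Wt (SE 0.137, edgeR adjusted p = 0.1206) and -0.44 in KO-labelled mice (SE 0.250, edgeR adjusted p = 0.26), where with the mouse as a block it was -0.44 (SE 0.0974, edgeR adjusted p = 0.006792); without DN3 WT05 the Wt value was -0.39 (SE 0.151, edgeR adjusted p = 0.0996). Rps27l relative to Rps27 averaged 18.2% ± 4.26 (SD, n = 3) in DN3 Wt and 10.6% ± 3.06 (n = 4) in DN4 Wt, and 15.6% ± 2.34 (n = 3) and 10.4% ± 2.77 (n = 3) in KO-labelled libraries. Every mouse with both stages had the lower ratio in DN4.

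Rpl36a, an X-linked large subunit gene, fell in KO-labelled mice in the blocked fit. Its levels were 382.1, 494 and 428.6 CPM in DN3 (KO45, KO49, KO51) and 279.5, 395.9 and 396.8 CPM in DN4. Each mouse was lower in DN4 and the groups overlapped. The log2 change was -0.30 (SE 0.167, edgeR adjusted p = 0.2496) and in the blocked fit -0.32 (SE 0.0961, edgeR adjusted p = 0.02895). In the blocked fit of Wt mice it was -0.0069 (SE 0.178, edgeR adjusted p = 0.9884). Within Wt mice Rpl36a was also lower in DN4 in WT46 (log2 value -0.067) and WT48 (-0.21), and higher in WT05 (0.34). Its autosomal paralogue Rpl36al, with 22.05% shared stretches against 85.48% in Rpl36a, was counted at these shares of Rpl36a: 43.8% ± 2.95 (n = 3) in DN3 Wt, 43.7% ± 1.5 (n = 4) in DN4 Wt, 39.4% ± 2 (n = 3) in DN3 and 41.3% ± 0.414 (n = 3) in DN4 KO-labelled libraries.

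Rpl3l was the rarest member past the filter and had the largest fitted stage change in KO-labelled mice. Its counts were 2, 19 and 20 in DN3 Wt (WT05, WT46, WT48) and 0, 1, 2 and 3 in DN4 Wt (WT05, WT40, WT46, WT48), too few for the filter of that comparison. In KO45, KO49 and KO51 its counts were 33, 8 and 22 in DN3 and 13, 5 and 0 in DN4. Each of the 6 mice was lower in DN4, and by CPM neither the Wt nor the KO-labelled groups overlapped. The fitted log2 change in KO-labelled mice was -2.17 (SE 0.780, edgeR adjusted p = 0.09335), and -2.22 (SE 0.639, edgeR adjusted p = 0.02345) in the blocked fit; with all 13 libraries in 1 fit the Wt change was -3.44 (edgeR adjusted p = 0.0123). Rpl3 itself, which lines the peptidyl transferase centre, was at 1422, 1837 and 1751 CPM in DN3 Wt and 1540, 1515, 1630 and 1353 CPM in DN4 Wt, and at 1754, 1798 and 1794 CPM in DN3 and 1267, 1623 and 1679 CPM in DN4 KO-labelled libraries. Its log2 change in KO-labelled mice was -0.25 (SE 0.140, edgeR adjusted p = 0.2615).

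Among the other pairs, Rpl7l1, which acts in ribosome assembly, stood at 7.41% to 8.75% of Rpl7 by group mean. Rpl39, which lines the exit tunnel, ran from 214.2 to 355.7 CPM and its paralogue Rpl39l from 0 to 0.8591 CPM. Rpl10, which is added late to the large subunit, ran from 906.8 to 1217 CPM beside Rpl10l at 0 counts. Rps4x, the X-linked small subunit gene, ran from 1321 to 1863 CPM; Rps4l is not annotated as protein coding and was no member.

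The next question was whether members differed between KO-labelled and Wt mice. In DN3 cells 80 of 81 members had a higher fitted level in KO-labelled libraries, with a median log2 change of 0.16 against -0.01 over all genes, but edgeR called 0 members and 0% of all genes (0 of 12105). DESeq2 and limma-voom also called 0 members, 1 member had an unadjusted p under 0.05 and the smallest adjusted p was 1. The shift rested on DN3 WT05: without it the median was 0.02, with 50 members higher and 31 lower, and without DN3 WT46 it was 0.25. The groups did not overlap for 1 member, Rps10, against 3.1% of all genes higher and 3.34% lower without overlap. Rps10, a small subunit protein, stood at 455.3, 635.3 and 633.3 CPM in DN3 Wt and 644.6, 673.9 and 655.1 CPM in DN3 KO-labelled libraries, a log2 difference of 0.19 (SE 0.170, edgeR adjusted p = 1), or of 0.05 (SE 0.0963, edgeR adjusted p = 0.9998) without DN3 WT05.

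By the rule for named members, Rpl29, Rpl39, Rpl22l1 and Rpl35a had the smallest p in DN3. Rpl39 stood at 214.2, 275.5 and 282.7 CPM in DN3 Wt and 297, 355.7 and 282.1 CPM in DN3 KO-labelled libraries, a log2 difference of 0.27 (SE 0.161, edgeR adjusted p = 1). Rpl22l1 differed by 0.31 (SE 0.189, edgeR adjusted p = 1) and Rpl35a by 0.23 (SE 0.165, edgeR adjusted p = 1). Without DN3 WT05 the differences of Rpl39, Rpl22l1 and Rpl35a were 0.16, 0.19 and 0.14, each with an edgeR adjusted p of 0.9998. In each of these the lowest KO-labelled library lay below the highest Wt library. Across the 81 members the change was larger for shorter coding sequences, as a description: Spearman's rho with coding length was -0.437, or -0.448 without DN3 WT05, and the 21 members with the shortest coding sequences had a median of 0.23 against 0.11 in those with the longest, which became 0.077 and -0.018 without that library. These points share libraries, and members that share reads are not independent.

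In DN4 cells 71 of 80 members had a higher fitted level in KO-labelled libraries, with a median log2 change of 0.07 against 0.00 over all genes. edgeR called 0 members, against 0.0535% of all genes (7 of 13084); DESeq2 and limma-voom also called 0, 1 member had an unadjusted p under 0.05, and the smallest adjusted p was 0.883. The 95% interval lay within 0.5 log2 units of 0 for 79 of the 80 members. The groups overlapped for all 80 members, against 2.74% of all genes higher and 4.34% lower without overlap. Without DN4 KO45 the median was 0.15 (77 members higher, 3 lower), and without DN4 KO49 it was 0.035 (53 higher, 27 lower). Of the 4 members with the smallest p, Rps14 differed by 0.18 (SE 0.0919, edgeR adjusted p = 0.883), Rpl37a by 0.16 (SE 0.0923, edgeR adjusted p = 0.8973) and Rps10 by 0.15 (SE 0.0859, edgeR adjusted p = 0.8973), and the fourth was Rpl29.

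Rpl29, a basic large subunit protein, differed between mice rather than between the stages of a mouse. It stood at 262.5 CPM in DN3 and 343.5 CPM in DN4 of WT05 and at 369.5 and 334.6 CPM in WT48. The other 9 libraries, of both genotypes, held 35.72 to 48.75 CPM. WT46 and WT40 were thus at the level of the KO-labelled mice, and the genotypes overlapped. The fitted log2 difference of KO-labelled against Wt was -2.28 in DN3 (SE 0.596, edgeR adjusted p = 1) and -2.10 in DN4 (SE 0.781, edgeR adjusted p = 0.883). Without DN3 WT05 the DN3 difference was -2.15 (SE 0.631, edgeR adjusted p = 0.9998), and without DN3 WT46, which removes the 1 low Wt library of DN3, it was -2.76 (edgeR adjusted p = 0.003704). The SD of Rpl29 between mice was 1.48 log2 units, against 0.742 or less in every other member, and its typical difference between the stages of a mouse was 0.212. Rpl29 lies on chromosome 9 from 106429454 to 106431568 on the plus strand of GRCm38, and 35.45% of its 50-base stretches occur in other genes.

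**Figure D5:**
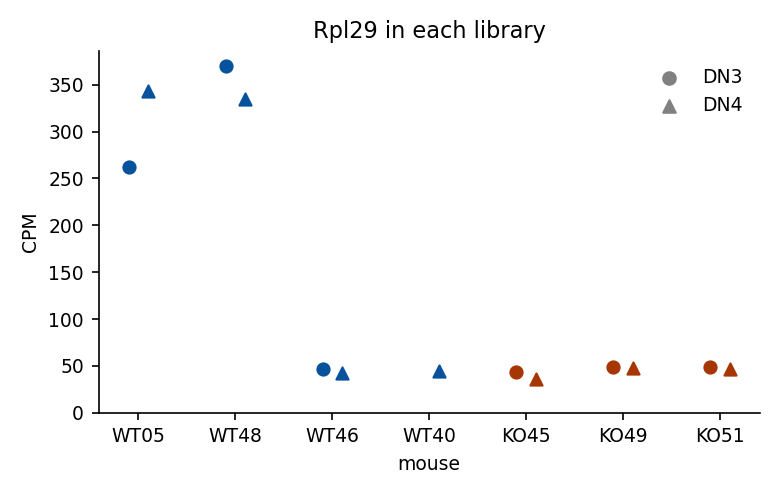
CPM of Rpl29 in each library by mouse, with circles for DN3, triangles for DN4, blue for Wt and orange for KO-labelled mice. WT05 and WT48 lie at 262.5 to 369.5 CPM in both stages and all other libraries at 35.72 to 48.75 CPM.

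Whether the stage change differed between genotypes was tested as an interaction over all 13 libraries. edgeR called 0 of 81 members and 0% of all genes (0 of 13361), DESeq2 and limma-voom called 0 members, and 0 members had an unadjusted p under 0.05. In 79 members the KO-labelled change was lower than the Wt change and in 2 higher, with a median of -0.11, which became 0.05 (59 higher, 22 lower) without DN3 WT05 and -0.034 (30 higher, 51 lower) without DN4 KO45; with another library left out it ran from -0.19 to -0.067. With the mouse as a block the test also called 0% of all genes and 0 members by edgeR, with 1 member at an unadjusted p under 0.05. The members with the smallest p were Rpl22l1 (given above), Rpl39 (-0.28, SE 0.193), Rpl36a (-0.27, SE 0.231) and Rpl30 (-0.25, SE 0.199), each with an edgeR adjusted p of 1. Without DN3 WT05 those of Rpl39, Rpl36a and Rpl30 were -0.14, -0.095 and -0.089, again with adjusted p of 1.

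Levels of members with a known further role follow, beside Rps14 and Rps19 above. Rpl5, Rpl11 and Rpl23, which can bind Mdm2 and so free Trp53, ran from 711.1 to 1062, from 621.5 to 938 and from 772.5 to 1301 CPM over the 13 libraries. Rps6, a substrate of S6 kinases, ran from 561.5 to 886.6 CPM, Rps27a, made as a fusion with ubiquitin, from 740.6 to 1058 CPM, and Rpl38, which aids translation of Hox mRNAs, from 211.6 to 363.9 CPM. Rpsa, also known as a laminin receptor, ran from 1766 to 2625 CPM. DN3 WT05 was the lowest library for each of these 7 genes. The stalk genes Rplp0, Rplp1 and Rplp2 ran from 1803 to 2702, from 888.1 to 1502 and from 503.6 to 777.1 CPM, again lowest in DN3 WT05. Rpl10a, a protein of the L1 stalk, stood at 818.1, 865.8 and 849.3 CPM in DN3 and 602.2, 789.8 and 789.5 CPM in DN4 KO-labelled libraries, a log2 change of -0.24 (SE 0.137, edgeR adjusted p = 0.2704).

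Without the mouse as a block, stage calls were found in 3 lists of genes that act around the ribosomal proteins. Of subunit genes outside the name rule, Rps3a1 had a log2 stage change of 0.11 in Wt (SE 0.166, edgeR adjusted p = 0.6793) and -0.16 in KO-labelled mice (SE 0.139, edgeR adjusted p = 0.4661), and Rack1 of -0.01 (SE 0.172, edgeR adjusted p = 0.9881) and -0.07 (SE 0.123, edgeR adjusted p = 0.7253). Fau, whose product includes a small subunit protein, had a log2 stage change of 0.47 in Wt (SE 0.195, edgeR adjusted p = 0.1256) and 0.34 in KO-labelled mice (SE 0.113, edgeR adjusted p = 0.07249), where with the mouse as a block it was 0.34 (SE 0.0867, edgeR adjusted p = 0.01456). Of 20 translation factors and other genes with terminal oligopyrimidine mRNAs, 1 was called in Wt, lower, against 9.43% of all genes called lower (1197 of 12691), and 0 were called by edgeR in KO-labelled mice, against 7.34% (924 of 12580), with list medians of -0.08 and -0.19. The called gene, Gas5, a noncoding host of small nucleolar RNAs, went from 485 ± 35.1 CPM (SD, n = 3) to 340 ± 39.9 CPM (n = 4) in Wt, a log2 change of -0.54 (SE 0.128, edgeR adjusted p = 0.01805). With the mouse as a block, which leaves out WT40, Gas5 was not called in Wt (-0.54, SE 0.185, edgeR adjusted p = 0.08373), and in KO-labelled mice 7 of the 20 were called, all lower, against 16.9% of all genes called lower in that fit.

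Of 18 regulators of ribosome production, 5 fell in Wt mice, 3 fell in KO-labelled mice and none rose, beside 9.43% and 7.34% of all genes called lower. The 3 with the largest fall were Cdkn1a, a target of Trp53 (-2.12 in Wt, edgeR adjusted p = 0.001143, and -2.48 in KO-labelled mice, edgeR adjusted p = 0.0006502), Mycn (-1.85, adjusted p = 0.006319, and -2.09, adjusted p = 0.002712) and Myc, a driver of ribosomal gene transcription (-0.98, adjusted p = 0.007551, and -0.96, adjusted p = 0.02482). With the mouse as a block, 4 regulators fell in Wt mice, against 6.53% of all genes called lower, and in KO-labelled mice 5 fell and 3 rose, against 35.8% of all genes called in either direction; Cdkn1a, Mycn and Myc were called lower in both fits and both genotypes. Of 16 chaperones, importers and assembly factors of ribosomal proteins, 4 fell in Wt and 2 in KO-labelled mice, beside the same shares of all genes, with list medians of -0.34 and -0.33. Heatr3, which takes part in the import of Rpl5, fell in both (-0.60, adjusted p = 0.005939, and -0.69, adjusted p = 0.02471), and Grwd1, a chaperone of Rpl3, and Tsr2, a chaperone of Rps26, fell in Wt (-0.55, adjusted p = 0.01254, and -0.53, adjusted p = 0.01376). With the mouse as a block, 2 of the 16 fell in Wt mice, Heatr3 and Tsr2, while Grwd1 had an edgeR adjusted p of 0.05318, and 9 fell in KO-labelled mice, beside 6.53% and 16.9% of all genes called lower. None of these 3 lists had a call between the genotypes or in the interaction by edgeR.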

How the data were processed

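RNA of sorted DN3 and DN4 thymocytes was isolated with RNeasy kits, made into TruSeq stranded mRNA libraries and sequenced on a HiSeq 3000. The authors deposited whole-number counts for every gene and library; per the labels, the authors' notes name STAR, featureCounts, DESeq2, deepTools and the mm10 build, without versions, and the methods name Cutadapt. Annotation was GENCODE M21 (GRCm38): 47310 of 47937 identifiers were found without their version and 39192 with it. Start windows are from RefSeq (GRCm38.p6).

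A separate fit for each comparison, on the groups it sets side by side, used edgeR 4.0.16 in R 4.3.3 (filterByExpr with a minimum count of 10, TMM, quasi-likelihood test) over all genes that passed, with Benjamini-Hochberg adjustment over them and a threshold of 0.05; limma 3.58.1 and DESeq2 1.42.0 were alternatives. CPM use TMM-scaled library sizes, and levels per kb use the median length of complete coding transcripts. The script was tested on simulated data with 200 changed genes. At the median depth, 100 CPM has a relative counting error of 3.16%, which covers counting error only.

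The number in a label is shared by a DN3 and a DN4 library. Deviations from the group means correlated over 13361 genes within all 6 such pairs (KO45 0.46, KO49 0.213, KO51 0.331, WT05 0.145, WT46 0.124, WT48 0.182), so the number was taken as the mouse. No libraries of a group agreed within sampling noise (lowest chi-square per degree of freedom 6.19).

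Members, lists and tests were chosen with earlier results of these data known. Named members were the paralogue pairs, members with a known further role, the stalk genes, the members called between stages with the largest changes, the 4 with the smallest p between genotypes and in the interaction, the 3 highest and 3 lowest per length, and those under the filter; of listed other genes, up to 3 called per direction. Alternatives were other scalings, filters and tools, 1 fit of all 13 libraries, the mouse as a block and each library left out. The fits without ribosomal RNA-like genes, the share without them, the blocked fits without a mouse and the blocked values of the other listed genes were added after seeing the data. Values of some single genes are not reported here.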

Additional observations from a re-analysis of the deposited data

How the results depend on the processing

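Over all reported values, 752 values under other settings were counted as unchanged and 13 moved as a count, a median or a share. For single genes, 13 values came to pass the threshold and 1 turned its direction. Of the values under settings chosen after seeing the data, 57 were unchanged and 4 moved. Unchanged meant the same direction and side of the threshold for a single gene, and the same number for a count. Medians and shares were unchanged where they moved by less than an SD between libraries, so their sign could turn. The interaction median went from -0.11 to 0.05 without DN3 WT05. In Wt mice the stage comparison called 0 members, but 1 (Rpl3l) without the filter and 1 (Rpl3l) with all 13 libraries in 1 fit, 0 to 5 with a library left out, and 1 with the replicate block without WT05; Rpl22 turned from 0.02 to -0.094 without DN3 WT05 and ran up to 0.091 with another library left out. In KO-labelled mice it called 0 members, but 2 at an adjusted p under 0.1, 1 without the filter, 1 by DESeq2 and 1 with all 13 libraries (Rpl22l1 in each), 0 to 1 with a library left out (Rpl22l1 without DN3 KO45 or DN4 KO51, and Rpl3l without DN4 KO45), 4 with the replicate block and 3 with the block and any 1 mouse left out. The block changed no other call of a named member; its effect on the lists of other genes is given with them.

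Between genotypes in DN3, scaling by library totals gave a member median of 0.35 beside an all-gene median of 0.23, and leaving out a library gave 0 to 1 called members (Rpl29 without DN3 WT46). Library totals shifted the all-gene median to 0.16 in the Wt stage comparison, where 72 members were then higher and 8 lower, against 40 and 40. With a library left out, member medians ran from -0.15 to 0.09 (stage, Wt), -0.18 to -0.05 (stage, KO-labelled), 0.02 to 0.25 (DN3 genotypes), 0.03 to 0.15 (DN4 genotypes) and -0.19 to 0.05 (interaction). Rpl3l rests on 33 counts or fewer in any library.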

Other observations

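These values were chosen after they were seen and are given without explanation. In the 2 mice with high Rpl29, WT05 and WT48, Abhd14b, which lies downstream of Rpl29 on chromosome 9 (106447459 to 106452923), stood at 1.46 and 5.51 CPM in DN3 and at 2.67 and 5.58 CPM in DN4, on 5 to 55 counts; in the other 9 libraries it stood at 0.0976 to 0.785 CPM. Gm8210, a processed pseudogene on chromosome 1 (43189156 to 43189638) that shares 284 of the 1289 50-base stretches of Rpl29, stood at 16.7, 29.8, 30.8 and 27.3 CPM in the 4 libraries of those mice (DN3 WT05, DN3 WT48, DN4 WT05, DN4 WT48) and at 47.5 to 62.8 CPM in the others.

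Pseudogenes named after ribosomal proteins, 274 in the table of which 217 had counts, took 0.0208% to 0.0779% of the counts of a library. Rps13-ps1 stood at 31.9 to 45 CPM in the libraries of KO45, WT05 and WT40 and at 0 to 1.08 CPM in those of the other mice.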
